A study of Mus musculus with 28 samples.

Results

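The genes of DNA replication and nucleotide supply examined here comprised 42 mouse genes: 12 of origin licensing, 5 of helicase activation, 8 DNA polymerase and primase subunits, 5 of the sliding clamp and its loader, 2 of the single-strand binding protein RPA, 2 of Okazaki fragment maturation, 5 of deoxynucleotide supply and 3 regulators of entry into S phase. They were taken from a fixed list of symbols out of the 18193 genes that had a probe set naming 1 gene, and the brightest probe set (highest mean over the 28 arrays) stood for each gene. The detection level was 2 log2 units over the most frequent value on the arrays, 4.28. Of the 42 genes, 41 lay over it on all 28 arrays and were tested together with the rest of the 9868 detected genes. The exception was Tyms, thymidylate synthase, whose brightest probe set averaged 2.76 and which was not tested.

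Expression was measured on 28 single-colour mouse arrays of splenic T cells, 14 of CD8 cells and 14 of CD4 cells, purified by negative selection. All cells, the controls included, had been stimulated with plate-bound anti-CD3 and soluble anti-CD28 for 2 days, and the drugs were then given for 1 day. Romidepsin and vorinostat inhibit histone deacetylases, which take acetyl groups off histones and other proteins. In each cell type 6 drug groups (romidepsin at 2, 10 and 30 nM, vorinostat at 0.5, 2 and 10 µM) were set against 1 stimulated control group, with 2 arrays in each of the 14 groups. The labels name no vehicle for the controls, no strain, age or sex, and do not say whether the 2 replicates came from separate animals. P-values therefore measure only the spread between these samples. Since the RNA came from bulk cultures, fewer cells of a kind, such as cells in S phase, and less RNA per cell cannot be told apart.

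Replication begins when the origin recognition complex, with Cdc6 and Cdt1, loads the ring-shaped Mcm2-7 helicase onto origins in G1. Cdc45, the GINS complex and Mcm10 turn the loaded helicase on, after which primase, the replicative polymerases, the clamp PCNA and its loader RFC copy both strands from deoxynucleotides made by ribonucleotide reductase and its partners. Resting T cells hold little of this machinery and build it after stimulation through the antigen receptor, largely through E2F transcription factors.

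The 2 replicate numbers differed in ways that touch every value below. On the 14 arrays of replicate 1, Xist read 2.27 and Eif2s3y 11.36 to 12.02, whereas on the 14 arrays of replicate 2 Xist read 11.69 to 12.72 and Eif2s3y 2.25. The replicates were therefore of opposite sex and not from the same animal, and sex cannot be told apart from replicate number. The replicate 1 arrays detected 8444 to 8668 genes and the replicate 2 arrays 9055 to 9316. The deviations of replicate 1 from replicate 2 ran together across groups. For this reason each comparison was tested with limma once without and once with the replicate number as a blocking factor within each cell type. "Passed" alone refers below to an adjusted p under 0.05 without the block, and calls made with it are named as such. Cd3d, Cd3e, Cd3g and Cd247 were over the detection level on all 28 arrays. Cd4 was 2.25 to 2.34 in CD8 cells and 2.39 to 8.55 in CD4 cells, where some drug arrays fell under the level. Cd8a was 9.34 to 11.99 in CD8 cells and 4 to 6.07 in CD4 cells, over the level on 26 arrays. Cd8b1 was 9.93 to 12.6 in CD8 cells and 5.32 to 8.28 in CD4 cells, over the level on all 28. The CD4 arrays thus also carried signal of both CD8 markers.

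At the lowest doses no member passed in either limma fit, and 1 had an unadjusted p under 0.05, in CD4 cells with romidepsin. With romidepsin at 2 nM the median change over the 41 genes was -0.10 in CD8 cells and -0.32 in CD4 cells on the log2 scale, against medians of 0 over all tested genes in both. Over all tested genes 0% passed in CD8 cells in either fit, and in CD4 cells 0.0304% passed without the block and 0.922% with it. With vorinostat at 0.5 µM the member median was -0.23 in CD8 cells and -0.21 in CD4 cells, beside -0.05 and -0.02 over all genes. There 0% of all tested genes passed in CD8 cells and 0.0101% in CD4 cells, and with the block 1.13% and 0.253%.

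At the middle and top doses most replication genes were lower than in the control of the same cells by the estimate. With vorinostat at 10 µM, 6 of the 41 fell in CD8 cells and none rose, where 20.6% of all tested genes passed in either direction. With the block 28 fell and 5 rose, or 68.3% and 12.2% of the members, against 32.4% and 31.6% of all tested genes. With romidepsin at 30 nM, 3 members fell in CD8 cells and none rose, where 10.8% of all genes passed, and with the block 25 fell (61% of the members, against 24.6% of all genes) and none rose. At the middle doses in CD8 cells no member passed, where 1.12% of all genes passed with romidepsin at 10 nM and 3.3% with vorinostat at 2 µM, and 2 and 3 members had an unadjusted p under 0.05. With the block 16 members fell with romidepsin at 10 nM (39%, against 8.14% of all genes) and 25 fell with vorinostat at 2 µM (61%, against 20.5%), and none rose in either.

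In CD4 cells the members were divided in direction. Romidepsin at 30 nM gave 3 rises (Orc2, Orc6 and Gins4) and 2 falls (Rrm2 and Rfc3), where 21.2% of all tested genes passed. With the block 10 members rose and 13 fell, and these shares, 24.4% and 31.7%, lay near or under the 35.3% and 28.3% of all genes. Vorinostat at 10 µM gave 1 rise (Gins4) and 1 fall (Rrm2), where 18% of all genes passed, and with the block 6 rises and 18 falls (14.6% and 43.9%, against 31.9% and 29.3% of all genes). With romidepsin at 10 nM Rrm2 alone passed, where 8.63% of all genes passed, and with the block 4 members rose and 19 fell (9.76% and 46.3%, against 26.2% and 22%). With vorinostat at 2 µM no member passed, where 1.42% of all genes passed and 4 members had an unadjusted p under 0.05, and with the block 19 fell (46.3%, against 15.9%).

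The member medians were, in CD8 cells, -0.36 and -0.51 with romidepsin at 10 and 30 nM and -0.49 and -0.61 with vorinostat at 2 and 10 µM. In CD4 cells they were -0.28 and -0.15 with romidepsin and -0.42 and -0.29 with vorinostat at the same doses. Over all tested genes the 8 medians lay between -0.03 and 0.07. All 6 drug groups of a cell type share its 2 control arrays, so these values are not independent of each other. The medians of both replicate numbers were negative in all 12 drug comparisons, and the replicate 1 median lay further from 0 except at the top doses in CD4 cells. Of the 41 genes, 19 were lower than control in all 12 comparisons by the estimate (46.3%, against 13.6% of all tested genes). In at least 1 comparison 9 passed without the block (22%, against 29% of all genes) and 37 with it (90.2%, against 87.5%).

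The calls rested on few arrays. Of the 17 calls made without the block, 2 were kept whichever array was left out (Rrm2 and Mcm5 in CD8 cells with vorinostat at 10 µM), and all 17 were kept with the block. The 6 calls in CD8 cells with vorinostat at 10 µM became 2 without CD8 control replicate 1 and 3 without CD8 control replicate 2 or vorinostat replicate 1. With romidepsin at 30 nM the 3 calls in CD8 cells became 0 without romidepsin replicate 1 or control replicate 1. The 5 calls in CD4 cells became 1 without romidepsin replicate 1, 3 without romidepsin replicate 2 and 0 without control replicate 1. The 2 calls in CD4 cells with vorinostat at 10 µM became 1 without control replicate 1 or vorinostat replicate 2 and 0 without vorinostat replicate 1, and the call with romidepsin at 10 nM was lost without romidepsin replicate 1 or either control. With the block the counts at the top doses stayed between 17 and 31 whichever array was left out, apart from 15 with vorinostat at 10 µM in CD4 cells without control replicate 1. The middle doses were less stable with the block. The 16 calls in CD8 cells with romidepsin at 10 nM became 0 without romidepsin or control replicate 1 and 6 without romidepsin replicate 2, and the 25 with vorinostat at 2 µM became 12 without control replicate 1 and 15 without vorinostat replicate 1. The 23 calls in CD4 cells with romidepsin at 10 nM became 12 without romidepsin replicate 1, 11 without control replicate 1 and 15 without control replicate 2, and the 19 with vorinostat at 2 µM became 0 without vorinostat or control replicate 1.

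One measure of RNA quality and the levels of some markers differed between drug and control arrays. The difference between the 3' and 5' probe sets of actin, which grows as RNA is shorter or copied less fully, was 0.90 to 1.43 at the top doses and 0.79 to 0.86 on the control arrays of CD8 cells, and 0.97 to 1.62 and 0.78 to 0.94 in CD4 cells. The same difference for Gapdh was 0.07 to 0.26 at the top doses and 0.08 to 0.2 on the control arrays of CD8 cells. In CD4 cells it was 0.08 to 0.34 and 0.16 to 0.2, so the Gapdh ranges overlapped. The summed level of the 4 T cell markers was 11.82 to 14.67 on the drug arrays of all doses and 13.91 to 14.72 on the control arrays of CD8 cells, and 11.92 to 14.36 and 13.91 to 14.45 in CD4 cells. The summed level of 4 B cell markers was 4.55 to 8.78 with drug and 6.95 to 9.06 on the control arrays of CD8 cells, and 4.28 to 9.97 and 6.78 to 10.28 in CD4 cells. Of those 4, Cd79b was over the detection level on 22 arrays, at up to 8.81 in CD8 cells and 9.86 in CD4 cells. Ms4a1 was over it on 12, at up to 6.39 in CD8 cells and 8.16 in CD4 cells. Cd79a and Pax5 were under the detection level on all 28 arrays. So were the myeloid markers Lyz2, Cd14, Csf1r and Itgam, the natural killer marker Ncr1 and the erythroid markers Hba-a1 and Alas2. The remaining myeloid marker, Cd68, was over it on all 28, and the summed myeloid level was 5.71 to 7.59 with drug and 6.02 to 6.89 in the controls of CD8 cells. Klrd1, which CD8 T cells can also express, ran from 3.70 to 13.30 in CD8 cells and from 2.30 to 5.76 in CD4 cells. The part of these shifts in the results on replication genes was not tested.

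**Figure D1:**
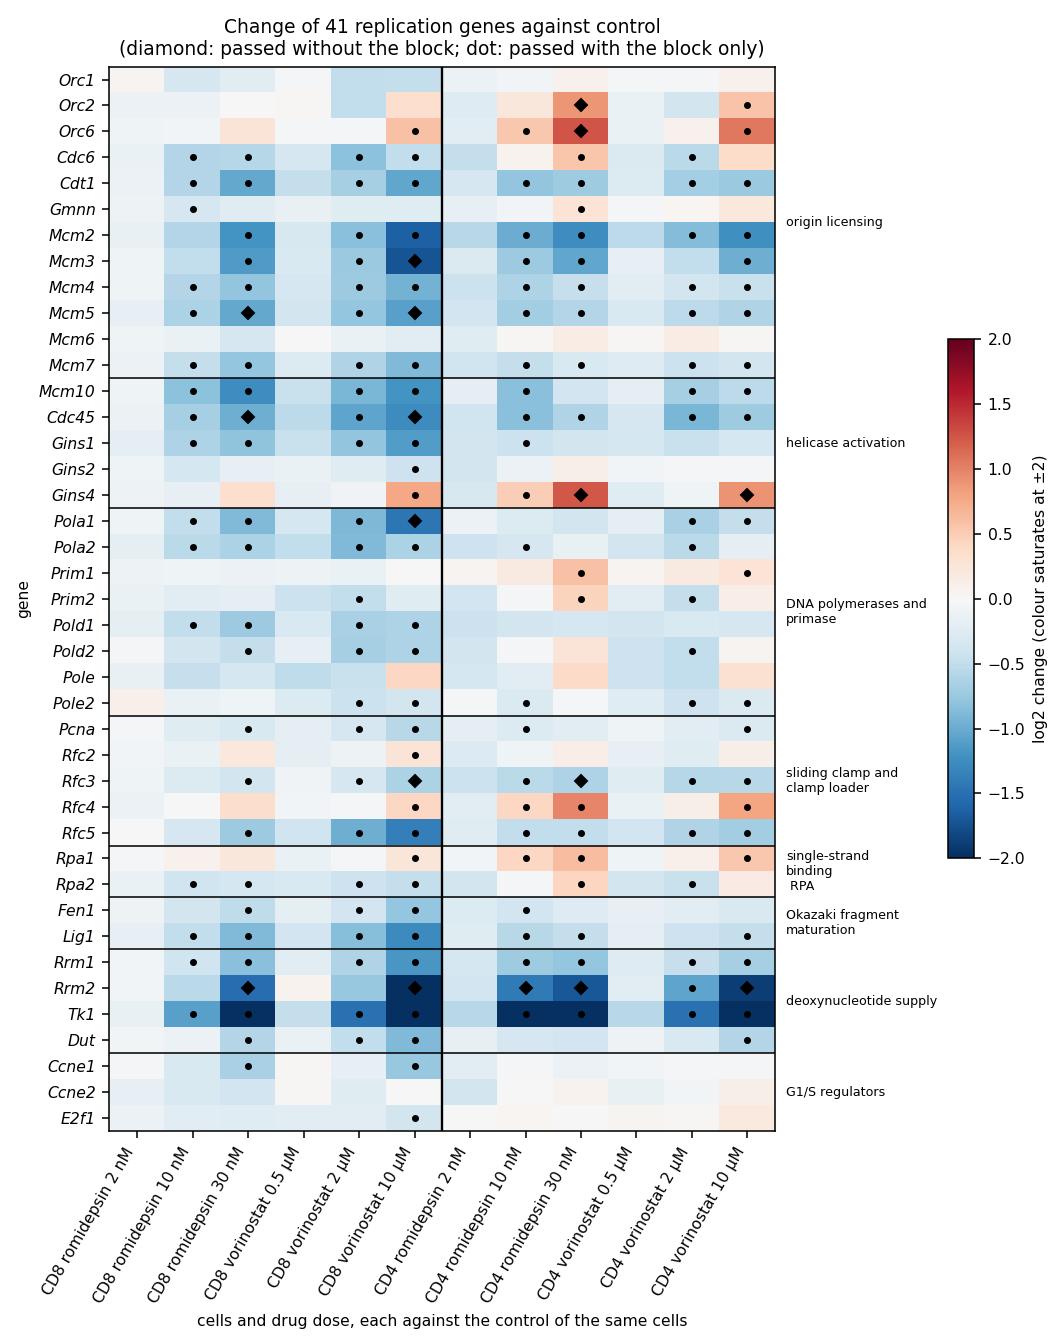
Log2 change of the 41 tested genes (rows, grouped by role) against the control of the same cells at each dose (columns), with diamonds for genes that passed without the block and dots for those that passed with the block only. The CD8 columns at the middle and top doses are mostly blue (lower than control), whereas the CD4 columns at 30 nM and 10 µM also hold red members such as Orc6 (1.25) and Gins4 (1.24).

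**Figure D2:**
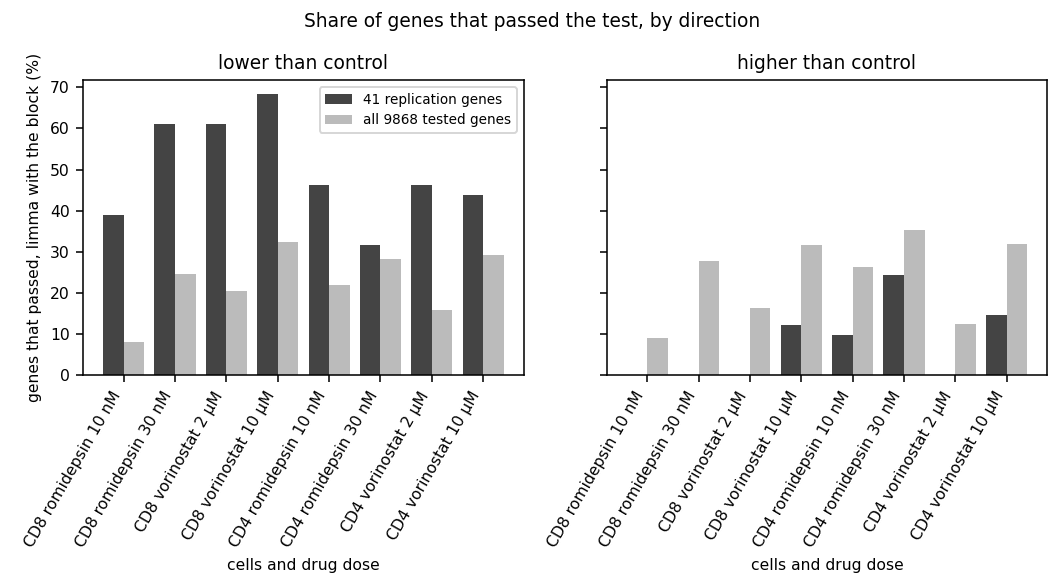
Percentage of the 41 replication genes (dark bars) and of all 9868 tested genes (light bars) that passed with the block, lower than control on the left and higher on the right, at the middle and top doses. The dark bars for lower genes reach 68.3% in CD8 cells with vorinostat at 10 µM, against 32.4% of all genes, and lie near the light bar in CD4 cells with romidepsin at 30 nM (31.7% against 28.3%).

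Deoxynucleotide supply held the members with the largest changes. Rrm2, the small subunit of ribonucleotide reductase, read 10.02 and 10.76 in CD8 cells with vorinostat at 10 µM, against 12.78 and 12.39 in CD8 controls. Both drug arrays lay below both controls, and Rrm2 fell by 2.19 ± 0.41 (SE, n = 2 arrays a group, adjusted p = 0.00133, limma), a 4.56-fold lower mean. With romidepsin at 30 nM it read 10.66 and 11.43 in CD8 cells and fell by 1.53 ± 0.41 (adjusted p = 0.0237). In CD4 cells it read 10.20 and 10.98 with vorinostat at 10 µM and 10.38 and 11.16 with romidepsin at 30 nM, against 12.51 and 12.43 on the control arrays. The groups did not overlap, and the falls were 1.88 ± 0.41 (adjusted p = 0.00415) and 1.70 ± 0.41 (adjusted p = 0.00731). With romidepsin at 10 nM Rrm2 also fell in CD4 cells, by 1.42 ± 0.41 (adjusted p = 0.0407), whereas in CD8 cells the change at that dose was -0.54 ± 0.41 (adjusted p = 1). The difference between the cell types at that dose, 0.88 (interval with the block -0.02 to 1.79), did not pass in either fit. Taking the mean of all its probe sets in place of the brightest ended the calls of Rrm2 with romidepsin at 10 nM in CD4 cells and at 30 nM in CD8 cells.

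Tk1, thymidine kinase of the salvage pathway, had the largest mean change of all members over the 12 comparisons, -1.55, and the widest gap between replicates. In CD8 cells with vorinostat at 10 µM it read 5.71 and 7.68, against 9.25 and 10.05 on the control arrays. Both drug arrays lay below both controls, and the change was -2.95 ± 1.21 (SE, adjusted p = 0.0976), with -3.54 in replicate 1 and -2.37 in replicate 2. In CD4 cells Tk1 read 6.01 and 7.78 with vorinostat at 10 µM and 5.85 and 7.94 with romidepsin at 30 nM, against 8.85 and 10.35 on the control arrays, changes of -2.70 and -2.71 (SE 1.21 each). Without the block Tk1 passed nowhere. With the block it fell at both middle and both top doses in both cell types, with a 95% interval of -3.70 to -2.21 in CD8 cells with vorinostat at 10 µM. With romidepsin at 2, 10 and 30 nM replicate 1 read 9.06, 7.87 and 6.33 in CD8 cells and 8.15, 5.94 and 5.85 in CD4 cells. Replicate 2 read 9.92, 9.23 and 8.69 in CD8 cells and 9.93, 8.80 and 7.94 in CD4 cells, a smaller decline. Leaving out 1 array moved the change in CD8 cells between -3.94 and -1.97 with vorinostat at 10 µM and between -3.31 and -0.96 with romidepsin at 30 nM. Rrm1, the large reductase subunit, fell with the block at both middle and both top doses in both cell types, with changes at the top doses of -0.67 to -1.16. Dut, which degrades dUTP, changed by -0.39 to -0.89 at the top doses and fell with the block in all of them except romidepsin at 30 nM in CD4 cells. Tyms read 2.29 to 3.78 over the 28 arrays, under the detection level on each.

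**Figure D3:**
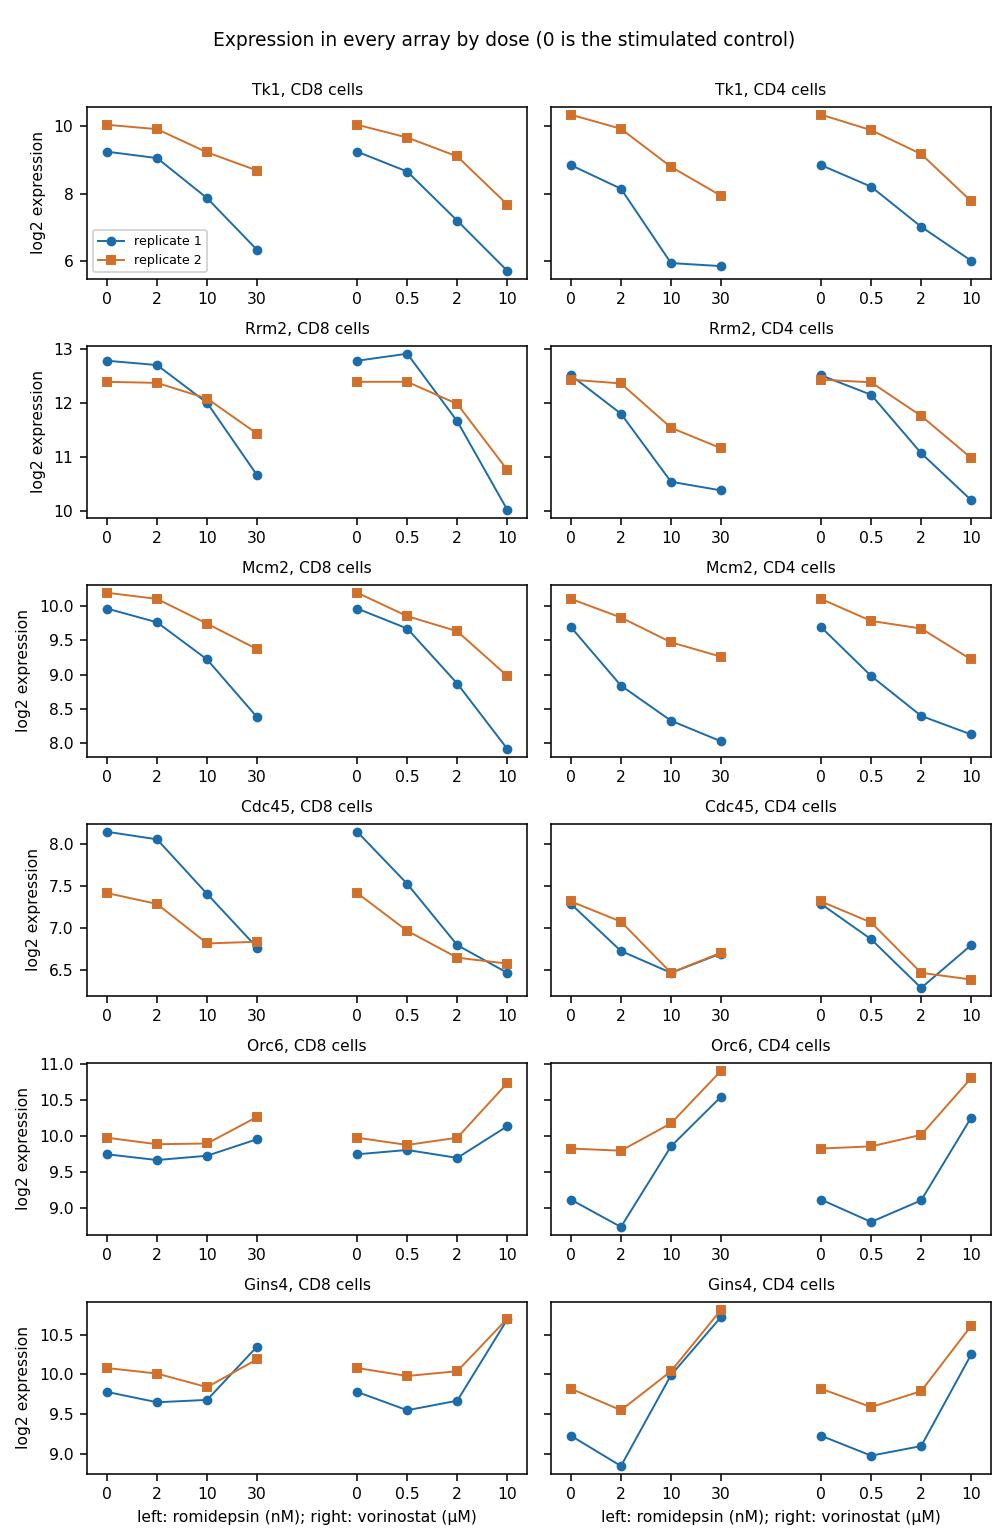
Log2 expression of 6 members on every array (CD8 left, CD4 right), by dose of romidepsin (left curve of each panel) and vorinostat (right curve), with 0 for the stimulated control and 1 line per replicate number. Tk1, Rrm2 and Mcm2 are lowest at the top doses in both cell types, while Orc6 and Gins4 are highest there, with Gins4 at 10.72 and 10.81 in CD4 cells with romidepsin at 30 nM, above 9.23 and 9.82 on the control arrays.

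Among the 12 licensing genes, 5 of the 6 subunits of the Mcm2-7 helicase fell with the block at every top dose, whereas Orc6 and Orc2 rose with it in CD4 cells. With the block 7 licensing genes (58.3%) fell in CD8 cells at each top dose, against 24.6% of all tested genes with romidepsin and 32.4% with vorinostat, and 1 (Orc6) rose with vorinostat (8.33%, against 31.6%). In CD4 cells 6 (50%) fell at each top dose, against 28.3% and 29.3% of all genes with romidepsin and vorinostat. The 4 rises with romidepsin and 2 with vorinostat in CD4 cells (33.3% and 16.7%) lay under the 35.3% and 31.9% of all genes. Mcm5 read 12.89 and 13.20 in CD8 cells with vorinostat at 10 µM and 12.85 and 13.35 with romidepsin at 30 nM, against 14.26 and 14 on the control arrays. Neither drug group overlapped the controls, and Mcm5 fell by 1.09 ± 0.23 (adjusted p = 0.00308) and 1.03 ± 0.23 (adjusted p = 0.0076). In CD4 cells its changes were -0.60 ± 0.23 (adjusted p = 0.0848) and -0.59 ± 0.23 (adjusted p = 0.0808). Mcm3 read 9.88 and 11.12 in CD8 cells with vorinostat at 10 µM, against 12.08 and 12.38 on the control arrays, and fell by 1.73 ± 0.59 (adjusted p = 0.0466), the only comparison in which it passed.

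Mcm2 read 7.92 and 8.98 in CD8 cells with vorinostat at 10 µM, against 9.96 and 10.19 on the control arrays, without overlap. Its change was -1.63 ± 0.59 (adjusted p = 0.0616), and with the block it fell in all 4 top-dose comparisons, as did Mcm3, Mcm4, Mcm5 and Mcm7. Mcm6, the remaining subunit of the ring, read 12.25 and 12.39 in CD8 cells with vorinostat at 10 µM, against 12.78 and 12.30 on the control arrays, and the groups overlapped. It changed by -0.22 there, with an interval of -0.58 to 0.14 with the block, and passed in none of the 12 comparisons in either fit. Another detected Mcm6 probe set, which averaged 12, changed by -0.38 there and by -0.42 in CD8 cells with romidepsin at 30 nM. The brightest changed by -0.34 with that dose. In CD4 cells this other probe set changed by 0.07 with romidepsin at 30 nM and 0.1 with vorinostat at 10 µM. The difference between Mcm6 and the other subunits was not tested. Cdt1, the loading factor, read 9.64 and 10.79 in CD8 cells with vorinostat at 10 µM, against 10.80 and 11.71 on the control arrays, and its change of -1.04 ± 0.84 (adjusted p = 0.462) was seen in both replicates. With the block it fell at both middle and both top doses in both cell types, with an interval of -1.38 to -0.71 in that comparison, where leaving out 1 array moved the change between -1.62 and -0.46.

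Orc6, the smallest subunit of the origin recognition complex, read 10.54 and 10.90 in CD4 cells with romidepsin at 30 nM, against 9.11 and 9.82 on the control arrays. Both drug arrays lay above both controls, and Orc6 rose by 1.25 ± 0.41 (adjusted p = 0.0376). Orc2, another subunit, read 8.26 and 8.18, against 7.08 and 7.6, and rose by 0.88 ± 0.29 (adjusted p = 0.0411). With vorinostat at 10 µM in CD4 cells their changes were 1.06 ± 0.41 (adjusted p = 0.0868) and 0.57 ± 0.29 (adjusted p = 0.207), and both rose with the block. In CD8 cells the changes of Orc6 at the top doses were 0.25 with romidepsin and 0.58 with vorinostat, and those of Orc2 were 0.01 and 0.33. Of these 4 values Orc6 with vorinostat passed with the block. Cdc6, the ATPase that loads the helicase with Cdt1, fell with the block in CD8 cells (-0.57 with romidepsin and -0.49 with vorinostat) and rose with the block in CD4 cells with romidepsin at 30 nM (0.56). Geminin (Gmnn), the inhibitor of Cdt1, changed by at most 0.27 in size at the top doses. Orc1 passed in none of the 12 drug comparisons in either fit, and its change with vorinostat at 10 µM in CD8 cells was -0.48 (interval with the block -0.97 to 0.02).

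The promoter windows of 5 licensing and supply genes are shown because they span the outcomes: Mcm5 and Mcm3, which fell, Rrm2, which had the most calls without the block, Mcm6, which did not pass, and Orc6, which rose in CD4 cells. Each window runs from 250 bases before to 50 bases after the annotated start, 5′ to 3′ on the gene's strand, from RefSeq on GRCm38.p6. Capitals mark exact matches on either strand to 4 spellings of the E2F letters, which may overlap one another (TTTCCCG as the first spelling, TTTGGCG as the second, TTTCGCG as the third and TTTGCCG as the last), and to CCAAT, the letters bound by NF-Y. The windows lie at chr8:75109259-75109558 (plus strand) for Mcm5, chr1:20820263-20820562 (minus) for Mcm3, chr12:24708004-24708303 (plus) for Rrm2, chr1:128359656-128359955 (minus) for Mcm6 and chr8:85299382-85299681 (plus) for Orc6.
Mcm5: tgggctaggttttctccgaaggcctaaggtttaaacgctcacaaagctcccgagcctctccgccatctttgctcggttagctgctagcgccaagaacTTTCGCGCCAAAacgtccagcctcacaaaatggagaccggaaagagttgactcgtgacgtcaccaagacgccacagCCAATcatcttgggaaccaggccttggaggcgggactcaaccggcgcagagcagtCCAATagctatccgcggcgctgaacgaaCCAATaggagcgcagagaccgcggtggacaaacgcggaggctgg
Mcm3: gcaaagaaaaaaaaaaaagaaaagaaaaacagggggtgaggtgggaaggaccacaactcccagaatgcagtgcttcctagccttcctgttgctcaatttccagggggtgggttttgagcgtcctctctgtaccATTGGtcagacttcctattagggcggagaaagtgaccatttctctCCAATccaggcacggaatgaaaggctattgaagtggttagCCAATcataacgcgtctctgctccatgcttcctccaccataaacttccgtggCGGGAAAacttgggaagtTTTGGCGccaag
Rrm2: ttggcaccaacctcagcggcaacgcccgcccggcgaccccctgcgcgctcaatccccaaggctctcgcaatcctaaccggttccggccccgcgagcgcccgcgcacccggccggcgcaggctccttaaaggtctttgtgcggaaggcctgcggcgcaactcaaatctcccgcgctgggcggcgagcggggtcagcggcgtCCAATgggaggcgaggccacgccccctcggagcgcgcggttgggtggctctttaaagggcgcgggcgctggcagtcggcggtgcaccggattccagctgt
Mcm6: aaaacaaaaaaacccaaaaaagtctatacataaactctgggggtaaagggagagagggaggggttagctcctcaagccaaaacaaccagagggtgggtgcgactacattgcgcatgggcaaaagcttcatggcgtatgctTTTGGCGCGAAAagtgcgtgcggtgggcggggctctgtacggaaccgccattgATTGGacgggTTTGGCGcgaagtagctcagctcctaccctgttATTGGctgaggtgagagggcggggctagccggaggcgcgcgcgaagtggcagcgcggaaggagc
Orc6: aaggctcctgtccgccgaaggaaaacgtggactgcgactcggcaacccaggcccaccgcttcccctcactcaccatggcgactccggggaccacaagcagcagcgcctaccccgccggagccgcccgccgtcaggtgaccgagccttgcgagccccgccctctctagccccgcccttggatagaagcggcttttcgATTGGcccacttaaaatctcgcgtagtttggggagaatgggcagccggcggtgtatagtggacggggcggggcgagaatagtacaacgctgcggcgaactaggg
The Mcm5 and Mcm3 windows held 2 E2F matches and 3 CCAAT matches each, and the Mcm6 window 3 and 2. The Rrm2 and Orc6 windows held no E2F match and 1 CCAAT match each. A window was found for 33 of the 42 genes, 39 windows in all, of which 16 (41%) held E2F letters and 21 (53.8%) held CCAAT. Of all 32851 windows in the table, 6.7% held E2F letters and 37.4% CCAAT. For the 13 members that fell with the block in all 4 top-dose comparisons (Cdc45, Cdt1, Lig1, Mcm2, Mcm3, Mcm4, Mcm5, Mcm7, Rfc3, Rfc5, Rrm1, Rrm2 and Tk1), 6 of 15 windows of 12 genes (40.0%) held E2F letters and 9 (60%) CCAAT. For the 9 that rose with the block in at least 1 of them and fell in none (Gins4, Gmnn, Orc2, Orc6, Prim1, Prim2, Rfc2, Rfc4 and Rpa1), 1 of 6 windows of 5 genes (16.7%) held E2F letters and 5 (83.3%) CCAAT. These sets were formed from the measured changes, and their shares are a description with no test. In single top-dose comparisons 24.6% to 32.4% of all tested genes fell with the block and 27.8% to 35.3% rose. The share of all tested genes that met either rule over all 4 is not given here, so the set sizes have no background.

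Of the 5 genes of helicase activation, Cdc45 was lower and Gins4 higher. Cdc45, the partner that holds the active helicase, read 6.47 and 6.58 in CD8 cells with vorinostat at 10 µM and 6.77 and 6.84 with romidepsin at 30 nM, against 8.15 and 7.42 on the control arrays. Neither drug group overlapped the controls, and Cdc45 fell by 1.26 ± 0.29 (adjusted p = 0.00549) and 0.98 ± 0.29 (adjusted p = 0.0397). In CD4 cells it read 6.80 and 6.39 with vorinostat at 10 µM, against 7.29 and 7.32, a change of -0.71 ± 0.29 (adjusted p = 0.104), and it fell with the block at both middle and both top doses. Gins4, a subunit of the GINS ring, read 10.72 and 10.81 in CD4 cells with romidepsin at 30 nM and 10.25 and 10.61 with vorinostat at 10 µM, against 9.23 and 9.82 on the control arrays. All 4 drug arrays lay above both controls, and Gins4 rose by 1.24 ± 0.30 (adjusted p = 0.00749) and 0.90 ± 0.30 (adjusted p = 0.0482). In CD8 cells Gins4 read 10.69 and 10.70 with vorinostat at 10 µM, against 9.78 and 10.08, and rose with the block by 0.77 (interval 0.40 to 1.13).

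Gins1, another subunit of the same ring, went the other way in CD8 cells, where it fell with the block by 1.12 with vorinostat at 10 µM and by 0.80 with romidepsin at 30 nM. In CD4 cells its changes were -0.35 and -0.36, neither of which passed. Mcm10, which helps the helicase to start, read 6.53 and 7.71 in CD8 cells with vorinostat at 10 µM and 6.47 and 7.69 with romidepsin at 30 nM, against 7.98 and 8.66 on the control arrays. Its changes were -1.20 ± 0.79 (adjusted p = 0.346) and -1.24 ± 0.79 (adjusted p = 0.418), and both were falls with the block.

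Among the polymerase and primase genes, Pola1, the catalytic subunit of the primer-making polymerase alpha, read 7.76 and 8.54 in CD8 cells with vorinostat at 10 µM, against 9.54 and 9.64 on the control arrays. The groups did not overlap, and Pola1 fell by 1.44 ± 0.39 (adjusted p = 0.0136). In CD4 cells with the same dose it read 8.07 and 8.46, against 8.57 and 8.92, a change of -0.48 ± 0.39 (adjusted p = 0.477). With the block 5 of the 8 genes fell in CD8 cells with vorinostat at 10 µM and 4 with romidepsin at 30 nM, and none rose. These shares were 62.5% and 50%, against 32.4% and 24.6% of all tested genes. Pola2, the partner of Pola1, Pold1, the catalytic subunit of polymerase delta, and its partner Pold2 were among the falls with both drugs, with changes of -0.48 to -0.73. In CD4 cells the primase subunits Prim1 and Prim2 rose with the block with romidepsin at 30 nM, by 0.59 and 0.45 (25% of the 8, against 35.3% of all genes), and none of the 8 fell. Pole, the catalytic subunit of polymerase epsilon, passed in no drug comparison in either fit.

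The clamp loader was divided as well. Rfc3 read 8.76 and 8.84 in CD8 cells with vorinostat at 10 µM, against 9.47 and 9.38 on the control arrays, and fell by 0.63 ± 0.19 (adjusted p = 0.0248). In CD4 cells with romidepsin at 30 nM it read 8.93 and 9.25, against 9.71 and 9.69, and fell by 0.61 ± 0.19 (adjusted p = 0.0286). The groups did not overlap in either comparison. Rfc5 fell with the block in all 4 top-dose comparisons, by 0.49 to 1.36, whereas Rfc4 rose with the block in 3 of them, by 0.97 and 0.79 in CD4 cells and by 0.42 in CD8 cells with vorinostat. Rfc2 had the smallest extreme of all members, with no change over 0.28 in size in any of the 12 comparisons. Pcna, the clamp itself, changed by -0.23 to -0.56 at the top doses and fell with the block in 3 of the 4.

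Of the RPA subunits, Rpa1 rose with the block in CD4 cells by 0.61 with romidepsin at 30 nM and by 0.54 with vorinostat at 10 µM. In CD8 cells it rose with the block by 0.24 with vorinostat at 10 µM. Rpa2 fell with the block in CD8 cells by 0.35 with romidepsin at 30 nM and by 0.47 with vorinostat at 10 µM. It rose with the block by 0.43 in CD4 cells with romidepsin at 30 nM. Lig1, the ligase that seals Okazaki fragments, fell with the block in all 4 top-dose comparisons, by 0.88 and 1.28 in CD8 cells with romidepsin and vorinostat and by 0.47 with each in CD4 cells. Fen1, the flap nuclease of the same step, fell with the block in CD8 cells by 0.51 and 0.78. Its changes in CD4 cells, -0.26 and -0.30, did not pass.

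Of the 3 regulators of S phase entry, Ccne1 (cyclin E1) fell with the block in CD8 cells, by 0.65 with romidepsin at 30 nM and by 0.76 with vorinostat at 10 µM, while its changes in CD4 cells were -0.12 and -0.04. E2f1 fell with the block in CD8 cells with vorinostat at 10 µM (-0.37), where replicate 1 changed by -0.73 and replicate 2 by -0.01. Several replicate 1 arrays, the CD4 control among them, read the same E2f1 value, 5.57. Another detected E2f1 probe set changed by -0.87 in that comparison and by -0.2 in CD8 cells with romidepsin at 30 nM. In CD4 cells it changed by 0.16 with romidepsin at 30 nM and by 0 with vorinostat at 10 µM. Ccne2 passed in none of the 12 drug comparisons in either fit.

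Other probe sets of the same genes gave mostly the same sign. Beside the brightest, 32 further detected probe sets represented 24 members. Among those of genes called with the block, the sign was the same for 21 of 21 with romidepsin at 30 nM and 26 of 27 with vorinostat at 10 µM in CD8 cells, and for 22 of 23 and 21 of 22 in CD4 cells. Taking the mean of all probe sets of a gene ended 9 of the 17 calls made without the block: both of Rrm2 named above, Mcm5 and Cdc45 at both top doses and Mcm3 with vorinostat in CD8 cells, and Orc2 and Rfc3 with romidepsin at 30 nM in CD4 cells. Testing all genes without the detection filter ended 5, those of Rrm2 at 10 nM, Orc2, Orc6 and the vorinostat call of Gins4 in CD4 cells and that of Mcm3. Quantile normalization ended 3, both of Cdc45 and that of Rfc3 in CD8 cells. The probe sets that stood for Rrm2, Mcm5, Mcm6, Pold1 and Fen1 are of a class (x_at) that can also bind other transcripts.

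The responses of CD8 and CD4 cells were compared directly as the CD8 change minus the CD4 change. At none of the doses compared did a member pass without the block, where 1% of all tested genes passed for romidepsin at 30 nM, 0.578% for vorinostat at 10 µM, 0.0709% for romidepsin at 10 nM and 0.0101% for vorinostat at 2 µM, and 0 members had an unadjusted p under 0.05. With the block the CD8 response was lower for 8 members with romidepsin at 30 nM (19.5%, against 9.12% of all genes) and for 6 with vorinostat at 10 µM (14.6%, against 5.31%), and higher for none. It was lower for none at the middle doses, where 4.79% and 0.304% of all genes were lower for romidepsin and vorinostat. Among the members that passed with romidepsin at 30 nM, Cdc6 had the largest difference, -1.13 (interval with the block -1.58 to -0.68), with a CD8 change of -0.57 and a CD4 change of 0.56. Orc6 followed with -1 (interval -1.52 to -0.48) and Gins4 with -0.90 (interval -1.41 to -0.38), with CD8 changes of 0.25 and 0.34 against CD4 changes of 1.25 and 1.24.

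Among those that passed with vorinostat at 10 µM it was largest in Pola1, -0.96 (interval -1.44 to -0.48). The response differences of Tk1 and Rrm2 with vorinostat at 10 µM were -0.25 (interval -1.30 to 0.80) and -0.31 (-1.22 to 0.59). They were positive with romidepsin at 30 nM, 0.57 (-0.48 to 1.62) for Tk1 and 0.16 (-0.74 to 1.07) for Rrm2. For Tk1 at 10 nM the difference was 1.14 (0.09 to 2.19), with a CD8 change of -1.09 and a CD4 change of -2.23. None of these values passed in either fit. The 8 calls with romidepsin became 2 without CD4 romidepsin replicate 1, 4 without CD4 control replicate 1 and 5 without CD8 romidepsin or control replicate 1. The 6 calls with vorinostat became 0 without replicate 1 of CD4 vorinostat, CD8 vorinostat or the CD8 control, 2 and 1 without replicate 1 and 2 of the CD4 control, and 10 without CD4 vorinostat replicate 2. These genes were singled out after their values were seen.

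**Figure D4:**
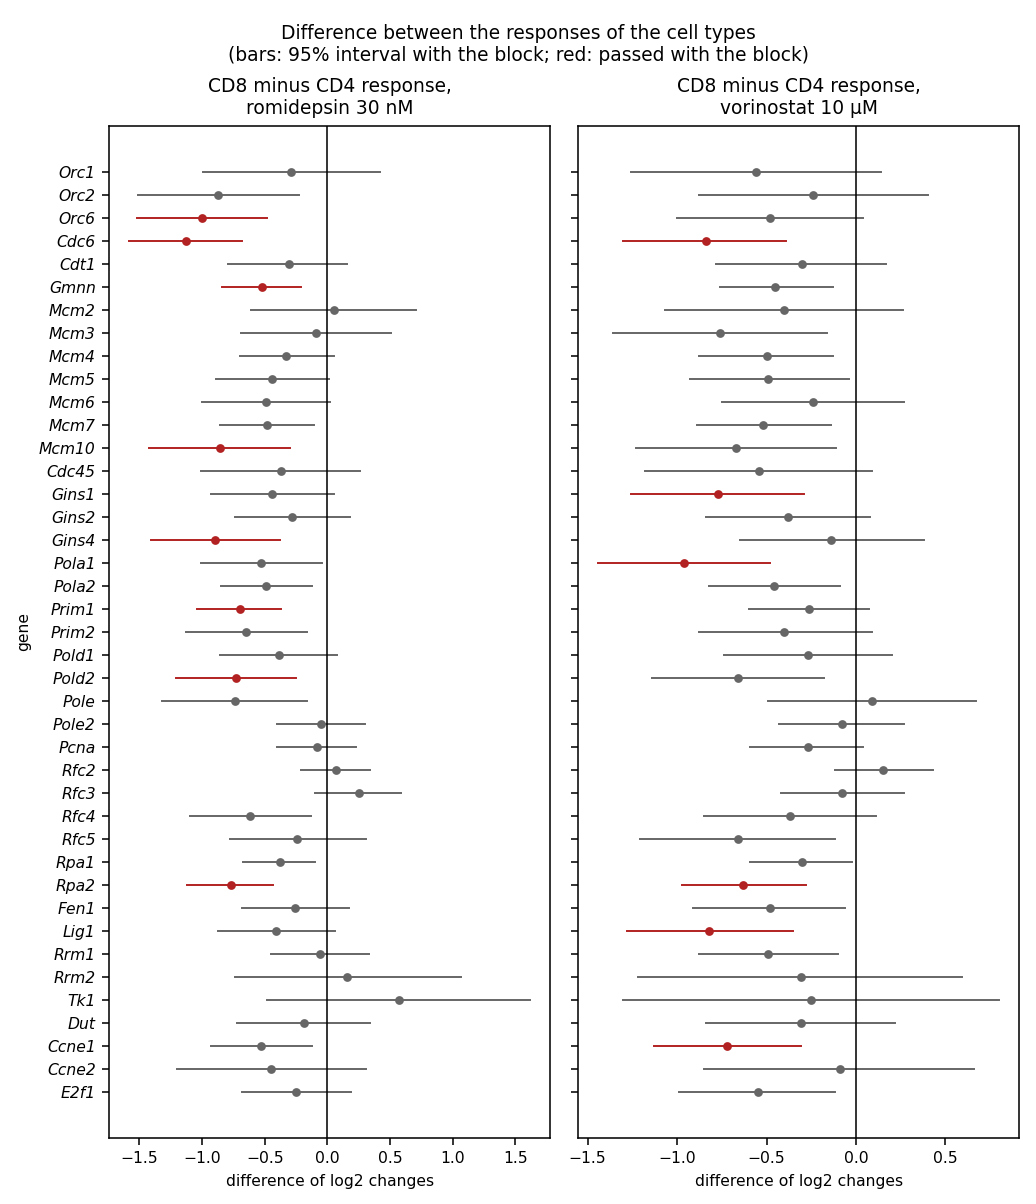
CD8 minus CD4 difference of the log2 changes for each tested member with romidepsin at 30 nM (left) and vorinostat at 10 µM (right), with 95% intervals from the fit with the block and red for those that passed with it. Most points lie left of 0 (a lower change in CD8 cells), with Cdc6 at -1.13 on the left and Pola1 at -0.96 on the right, while many intervals cross 0.

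By the estimate 37 of the 41 tested members were higher in CD8 than in CD4 controls. Without drug no member passed between CD8 and CD4 cells, where 6.22% of all tested genes passed and 1 member had an unadjusted p under 0.05. With the block 20 members were higher in CD8 controls (48.8%, against 21.3% of all genes) and none lower, with a member median of 0.36 against 0.06 over all genes. The block was set within each cell type, so it pairs no CD8 array with a CD4 array. It also takes the spread between replicates out of the error of this comparison, so these calls do not account for that spread. The member median was 0.56 in replicate 1 and 0.18 in replicate 2. The 20 calls became 9 without CD8 control replicate 1, 13 without CD4 control replicate 1 and 11 without CD4 control replicate 2. Rpa2 read 9.52 and 10.56 in CD8 controls, against 8.50 and 9.76 in CD4 controls, so the groups overlapped between replicates while each replicate differed by 1.02 and 0.80. The CD8 minus CD4 responses share these 4 control arrays.

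Genes outside the list place the members among their pathways. Of 31 tested other replication factors, 3 fell and none rose in CD8 cells with vorinostat at 10 µM (median -0.49), and 1 fell with romidepsin at 30 nM (median -0.46). These shares, 9.68% and 3.23%, lay near those of all 9868 tested genes, of which 839 and 289 fell there. In either direction 20.6% and 10.8% of all genes passed. The falls with vorinostat were Orc5, of the origin recognition complex, by 1.67 ± 0.56 (adjusted p = 0.0436), Tipin, of the fork protection complex, by 0.76 ± 0.25 (adjusted p = 0.0431), and Dtl, which directs Cdt1 to degradation, by 0.73 ± 0.19 (adjusted p = 0.0124). With romidepsin the fall was that of Dtl, by 0.71 ± 0.19 (adjusted p = 0.0256). With the block 17 and 18 of the 31 fell in CD8 cells with vorinostat and romidepsin. These were 54.8% and 58.1%, against 32.4% and 24.6% of all genes. There 7 and 5 rose (22.6% and 16.1%, against 31.6% and 27.8%). Orc5 fell with the block in all 4 top-dose comparisons, by 1.25 and 1.67 in CD8 cells and by 0.78 and 0.98 in CD4 cells with romidepsin and vorinostat. Without the block 2 of these factors rose in CD4 cells with vorinostat and 3 with romidepsin, and none fell (medians 0 and -0.01). These shares, 6.45% and 9.68%, lay under those of all 9868 tested genes, of which 1074 and 1314 rose there. In either direction 18% and 21.2% of all genes passed. With the block 10 and 11 rose (32.3% and 35.5%, against 31.9% and 35.3% of all genes). There 9 and 8 fell (29% and 25.8%, against 29.3% and 28.3%). Orc4, a further subunit of the origin recognition complex, rose in CD4 cells by 0.76 ± 0.20 with vorinostat and 0.74 ± 0.20 with romidepsin (adjusted p = 0.0156 and 0.0157). Rnaseh2a, the catalytic subunit of the nuclease that removes ribonucleotides from DNA, rose there by 1.79 ± 0.52 and 1.85 ± 0.52 (adjusted p = 0.0243 and 0.0181). Wdhd1, which links the helicase to polymerase alpha, rose with romidepsin by 0.59 ± 0.20 (adjusted p = 0.0421).

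Of 26 other nucleotide enzymes, 4 fell (15.4%) and 1 rose (3.85%) in CD8 cells with vorinostat at 10 µM. Over all tested genes 20.6% passed there in either direction. In CD4 cells with that dose 1 fell and 1 rose (3.85% each), where 18% of all genes passed. With romidepsin at 30 nM 2 fell (7.69%) and 1 rose (3.85%) in CD8 cells, where 10.8% of all genes passed. In CD4 cells 1 fell (3.85%) and 3 rose (11.5%), where 21.2% of all genes passed. Of all 9868 tested genes, 839 and 289 fell in CD8 cells with vorinostat and romidepsin, and 701 and 781 in CD4 cells. The enzymes' shares of falls lay above this in CD8 cells and under it in CD4 cells. With the block 16 and 13 enzymes fell in CD8 cells (61.5% and 50%, against 32.4% and 24.6% of all genes). There 3 rose with each drug (11.5%, against 31.6% and 27.8%). In CD4 cells 10 and 7 fell with it (38.5% and 26.9%, against 29.3% and 28.3%). There 6 and 7 rose (23.1% and 26.9%, against 31.9% and 35.3%). Rrm2b, the alternative small subunit of ribonucleotide reductase that is used outside S phase, moved against Rrm2. It read 9.24 and 8.89 in CD4 cells with romidepsin at 30 nM, against 7.56 and 7.48 on the control arrays, and rose by 1.55 ± 0.20 (adjusted p = 5.85e-05). In CD8 cells it read 8.52 and 8.56 with vorinostat at 10 µM, against 7.83 and 7.78, and rose by 0.73 ± 0.20 (adjusted p = 0.0163). It also rose with the other top dose in each cell type, by 1.32 and 0.88. Atic, which completes purine synthesis, read 8.48 and 8.64 in CD8 cells with vorinostat at 10 µM, against 10.45 and 10.33, and fell by 1.83 ± 0.19 (adjusted p = 1.19e-05). It fell by 1.14 to 1.28 in the other 3 top-dose comparisons. The other falls without the block in CD8 cells with vorinostat were Shmt1, of folate metabolism (-1.22 ± 0.40, adjusted p = 0.0411), Uck2, a uridine and cytidine kinase (-1.11 ± 0.32, adjusted p = 0.0223), and Cad, which starts pyrimidine synthesis (-0.92 ± 0.22, adjusted p = 0.00643). Cad also fell there with romidepsin, by 0.84 ± 0.22 (adjusted p = 0.0191). The purine synthesis genes Pfas and Gart rose in CD4 cells with romidepsin at 30 nM, by 1 ± 0.21 and 0.86 ± 0.23 (adjusted p = 0.00292 and 0.0135).

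Of 20 other regulators of G1 and S phase, 1 rose and none fell in CD8 cells at each top dose, and in CD4 cells 2 rose and 3 fell with romidepsin and 2 rose and 1 fell with vorinostat. Their medians were -0.43 and -0.67 in CD8 cells and -0.57 and -0.58 in CD4 cells with romidepsin and vorinostat. Without the block 5% rose in CD8 cells with each drug, where 10.8% and 20.6% of all tested genes passed in either direction. In CD4 cells 10% rose and 15% fell with romidepsin, and 10% rose and 5% fell with vorinostat. Over all genes 21.2% and 18% passed there. With the block 10 and 12 of the 20 regulators fell in CD8 cells (50% and 60%, against 24.6% and 32.4% of all genes) and 12 fell in CD4 cells with each drug (60%, against 28.3% and 29.3%). Rb1, the retinoblastoma protein that restrains E2F, rose in all 4 top-dose comparisons. It read 12.34 and 12.54 in CD8 cells with vorinostat at 10 µM, against 10.77 and 11.24, and rose by 1.43 ± 0.23 (adjusted p = 0.000353). In CD4 cells with romidepsin at 30 nM it read 12.52 and 12.45, against 10.92 and 11.06, and rose by 1.49 ± 0.23 (adjusted p = 0.000205). Cdkn1a, the p21 inhibitor of cyclin-dependent kinases, fell in CD4 cells by 1.21 ± 0.30 with romidepsin and 1.19 ± 0.30 with vorinostat (adjusted p = 0.00832 and 0.0104). In CD8 cells its changes were 0.52 and -0.12 (adjusted p = 0.347 and 0.867). E2f5, an E2F of the repressing kind, rose in CD4 cells by 1.2 ± 0.24 with romidepsin and 1.14 ± 0.24 with vorinostat (adjusted p = 0.00181 and 0.00324). Cdkn1b, the p27 inhibitor, and Ccnd2, cyclin D2, fell there with romidepsin, by 1.59 ± 0.51 and 0.86 ± 0.23 (adjusted p = 0.0343 and 0.0142).

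Of 23 mitosis genes, 6 fell in CD8 cells with vorinostat at 10 µM and 3 with romidepsin at 30 nM, and 4 fell in CD4 cells with each, while none rose. These shares were 26.1% and 13% in CD8 cells and 17.4% in CD4 cells. Of all 9868 tested genes, 839 and 289 fell in CD8 cells with vorinostat and romidepsin, and 701 and 781 in CD4 cells. In either direction 20.6% and 10.8% of all genes passed in CD8 cells and 18% and 21.2% in CD4 cells. The shares of mitosis genes that fell lay above the shares of all genes that fell. With the block 22 and 21 fell in CD8 cells (95.7% and 91.3%, against 32.4% and 24.6%) and 19 and 17 in CD4 cells (82.6% and 73.9%, against 29.3% and 28.3%). Their medians, -1.28 and -1.10 in CD8 cells and -0.85 and -0.74 in CD4 cells, lay below the member medians of the same comparisons (-0.61, -0.51, -0.29 and -0.15), a description with no test. Cdk1, the kinase that drives mitosis, fell by 2.65 ± 0.60 (adjusted p = 0.00509) in CD8 cells and by 1.85 ± 0.60 (adjusted p = 0.0445) in CD4 cells with vorinostat at 10 µM. The kinases Plk1 and Aurkb fell in CD8 cells with vorinostat, by 1.89 and 1.74 (adjusted p = 0.00248 and 0.00576), as did Cdc20, an activator of the anaphase-promoting complex, by 1.74 (adjusted p = 0.00591), and the spindle motor Kif11, by 1.42 (adjusted p = 0.000742). With romidepsin at 30 nM Plk1, Cdc20 and Kif11 fell in both cell types, by 1.66, 1.5 and 1.12 in CD8 cells and by 1.55, 1.35 and 0.74 in CD4 cells, and Aurkb in CD4 cells by 1.43. In CD4 cells with vorinostat Plk1, Aurkb and Kif11 fell by 1.41, 1.48 and 0.96.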

How the data were processed

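The authors deposited GCRMA values for 45101 probe sets on 28 Mouse430_2 arrays, per the submitters' processing notes, which name GCRMA without a version or settings. No source used here states the base of the deposited values, which were taken as log2 because GCRMA returns that scale. They hold no count or depth, so the 2 arrays a group limit the precision.

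Probe sets naming 1 gene (34945) were assigned through the platform's annotation, with symbols updated from RefSeq, and the brightest stood for its gene. Tyms is represented by 4 such probe sets, all under the detection level, and a probe set naming Tyms together with another gene was not used. Genes over the most frequent value plus 2 log2 units in at least 2 arrays were tested. The 14 group means were estimated in a single model with limma 3.58.1 in R 4.3.3 (lmFit and eBayes, 14 residual degrees of freedom), with 17 contrasts and the Benjamini-Hochberg method over all tested genes within each, at a threshold of 0.05. Calls and their counts rest on the adjusted p alone; in the 17 member calls without the block against the controls the 2 groups also did not overlap.

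The fit with the replicate number as a block within each cell type (12 residual degrees of freedom) was an alternative. The labels do not say that equal numbers belong together. The numbers pair the samples by the values: the replicate 1 minus replicate 2 differences of 2 groups correlated across genes by 0.768 to 0.958 in CD8 cells and 0.762 to 0.94 in CD4 cells, over 21 pairs of groups in each. Replicate 1 and replicate 2 arrays have different lowest values, 2.2684 and 2.2545, and whether they were normalized apart is not given in the sources used here.

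The other alternatives were quantile normalization, equal array medians, the mean of all probe sets of a gene, no filter on low values, an intensity trend in eBayes and leaving out each array. The fit with the block leaving out each array was chosen after seeing the data. The limma fit was tested on simulated data. The members and lists were chosen with earlier results of these data known. Named genes are the 8 members with the largest mean change, the called members, those called against the member median, the member with the smallest extreme and up to 3 called genes each way of each other list. Members called with the block only were described by role after their values were seen. Promoter windows (300 bases) came from RefSeq tables on GRCm38.p6. Figures used Python 3.11.15 and matplotlib 3.10.9.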

Additional observations from a re-analysis of the deposited data

Results flagged for a closer look

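These values are differences between the CD8 and the CD4 response (CD8 change minus CD4 change, log2) that passed in limma with the replicate block, and none passed without it. Leaving out 1 array changed their number, as given in the report. With romidepsin at 30 nM they were Orc6 at -1, Cdc6 at -1.13, Gmnn at -0.52, Mcm10 at -0.86, Gins4 at -0.90, Prim1 at -0.70, Pold2 at -0.73 and Rpa2 at -0.77. With vorinostat at 10 µM they were Cdc6 at -0.84, Gins1 at -0.77, Pola1 at -0.96, Rpa2 at -0.63, Lig1 at -0.82 and Ccne1 at -0.72. Cdc6 and Rpa2 stand in both lists, and the lists share the 4 control arrays.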

How the results depend on the processing

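The replicate block, which pairs arrays of the same number within a cell type, moved the member counts most. The number of members that passed with the block was 23 (CD4, romidepsin 10 nM), 23 (CD4, 30 nM), 19 (CD4, vorinostat 2 µM), 24 (CD4, 10 µM), 16 (CD8, romidepsin 10 nM), 25 (CD8, 30 nM), 25 (CD8, vorinostat 2 µM) and 33 (CD8, 10 µM), beside 1, 5, 0, 2, 0, 3, 0 and 6 without it. It was 8 and 6 for the response differences with romidepsin at 30 nM and vorinostat at 10 µM and 20 between the controls, beside 0 in each without it. Quantile normalization gave 2 and 10 for CD4 romidepsin at 10 and 30 nM, 7 for CD4 vorinostat at 10 µM, 3 and 13 for CD8 vorinostat at 2 and 10 µM and 1 between the controls. Equal array medians gave 2 for CD4 romidepsin at 10 nM, 4 for CD4 vorinostat at 10 µM and 1 for CD8 vorinostat at 2 µM. The mean of all probe sets gave 0 for CD4 romidepsin at 10 nM and 1 for CD8 romidepsin at 30 nM. An intensity trend gave 2 for CD4 romidepsin at 10 nM, and no filter on low values gave 3 for CD4 romidepsin at 30 nM. Of the 17 calls made without the block, 9 were lost with the mean of all probe sets, 5 without the filter, which tests more genes, and 3 with quantile normalization. The cause of the other shifts was not tested.

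The member medians for CD4 romidepsin at 30 nM were -0.17 with equal array medians and -0.13 with the mean of all probe sets. For CD4 vorinostat at 10 µM they were -0.24 with quantile normalization and -0.18 with the mean of all probe sets, and for CD8 vorinostat at 0.5 µM -0.17 with that mean.

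Leaving out 1 array sets a single array of one replicate number against both numbers. The medians for romidepsin at 2, 10 and 30 nM then ran from -0.26 to 0.07, -0.63 to -0.16 and -0.92 to -0.25 in CD8 cells and from -0.74 to 0.13, -0.58 to 0.03 and -0.54 to 0.16 in CD4 cells. For vorinostat at 0.5, 2 and 10 µM they ran from -0.38 to -0.09, -0.83 to -0.26 and -0.95 to -0.33 in CD8 cells and from -0.53 to 0.13, -0.76 to 0.02 and -0.54 to 0.04 in CD4 cells. The counts ran from 0 to 1 (CD4 romidepsin 10 nM), 0 to 4 (CD4 30 nM), 0 to 2 (CD4 vorinostat 10 µM), 0 to 2 (CD8 romidepsin 30 nM), 0 to 1 (CD8 vorinostat 2 µM) and 2 to 6 (CD8 10 µM). The change of Cdt1 ran from -1.62 to 0.03 (CD4 romidepsin 10 nM), -1.4 to 0.04 (CD4 vorinostat 2 µM) and -1.29 to 0.11 (CD8 romidepsin 10 nM), and that of Mcm10 from -1.49 to 0.14 and -1.09 to 0.02 (CD4 vorinostat 2 and 10 µM). With the block and 1 array left out the counts ran from 0 to 4, 2 to 10 and 0 to 10 for the response differences with romidepsin at 10 and 30 nM and vorinostat at 10 µM, and from 9 to 16 between the controls.

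With 2 arrays a group, the median width on either side of the 95% interval, over all tested genes, was 0.97 log2 units without the block. It was 0.35 with the block. For the response differences the widths were 1.38 and 0.5.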
